A study of Mus musculus with 2 samples.

Results

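Gene deserts are long stretches of chromosome without a protein-coding gene, and the peaks described here are the H3K9me2 peaks that lie in them. A peak belonged to the set if its midpoint fell in a gap of 1 Mb or more between neighbouring protein-coding gene bodies of RefSeq, on chromosomes 1 to 19 and X, and outside every long non-coding RNA (lncRNA) gene body. This gave 8339 of 31622 peaks in the wild-type library (26.4%) and 8466 of 32148 peaks in the knockout library (26.3%). Another 766 wild-type and 788 knockout peaks lay in lncRNA genes inside the same gaps and were left out. The rule itself uses gene positions and no peak value, though it was chosen with earlier results of these data known.

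H3K9me2, histone H3 dimethylated on lysine 9, is a mark of repressed chromatin that often spreads over long gene-poor stretches near the nuclear periphery. It is written mainly by the methyltransferases G9a and GLP and removed by jumonji-domain demethylases. Jmjd1c encodes a member of the family of jumonji proteins that holds H3K9 demethylases. Many gene deserts flank genes of brain and embryo development, and some hold distant regulatory elements of those genes.

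The mark was mapped by CUT&Tag, in which an antibody guides a transposase to cut and tag the chromatin that carries the mark. The cells were activated B cells from C57BL/6 mice, and the design compares wild-type animals (WT) with animals labelled jmjd1c B KO (KO). The labels do not name the allele, the Cre driver, the stimulus or the age of the mice. Each genotype had 1 library, so no difference between WT and KO has a replicate check, no p-value was computed, and the 95% intervals cover counting error only. Sites found in both lists count as separate draws in these intervals.

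The lists rested on 33474010 WT and 34502392 KO tags. The caller's fragment length d, below which it reports no peak, was 292 bp (WT) or 189 bp (KO), and d was subtracted from every width given here. The caller also listed other possible lengths, 191 bp among those for WT and 293 bp among those for KO. The 2 values of d therefore do not show that the fragments of the libraries differed in length. None of 27 B lineage genes had a peak midpoint in the gene or within 2 kb of it in either library, against 2 of 8 T cell genes and 1 of 6 myeloid genes. Peaks are rare in genes at large, since 8.0% of the coding genes that flank no desert held one in WT and 8.12% in KO. These short lists therefore check the label only weakly, and a peak list holds no expression level to check the cell label further.

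Some desert peaks lie on sequences with a name of their own, and these show what such a site can look like. Among 55 miRNA hairpins in deserts, Mirlet7c-1 was the hairpin overlapped by a desert peak in both libraries, and its neighbour Mir99a, 265 bp from the WT peak and 79 bp from the KO peak, was the only other within 1 kb in both. They lie in the desert between Usp25 and Cxadr on chromosome 16, the hairpin of Mirlet7c-1 at chr16:77599657-77599750 on the plus strand of GRCm38.p6, the assembly behind mm10. The peaks were chr16:77599265-77599773 in WT and chr16:77599079-77599697 in KO, with 2.32-fold and 2.90-fold enrichment by the authors. Both cover the whole 5p arm, while the 3p arm starts 20 bp past the end of the KO peak. let-7 and miR-99 family miRNAs repress target mRNAs through the seed, bases 2 to 8, shown in capitals in these RefSeq sequences, and the seeds of the pair differ.
mmu-let-7c-5p: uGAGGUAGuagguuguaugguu
mmu-miR-99a-5p: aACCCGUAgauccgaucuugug

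The other sequences shown are promoters of genes at the edge of a desert, because gene starts that face a desert carried peaks more often than other gene starts. Each is the 250 bases before a RefSeq transcript start, printed in the direction of the gene, with every CG dinucleotide in capitals. The Cntnap2 (a neurexin relative) stretch is chr6:45059811-45060060 on the plus strand, Epha7 (an ephrin receptor) chr4:28812881-28813130 plus, Lrrc4c (a synaptic adhesion protein) chr2:96317919-96318168 plus, and the predicted gene Gm15501 chr7:93184177-93184426 minus. All 250 bases lay under a peak in both libraries, except that the WT peak at Lrrc4c covered 244.
Cntnap2: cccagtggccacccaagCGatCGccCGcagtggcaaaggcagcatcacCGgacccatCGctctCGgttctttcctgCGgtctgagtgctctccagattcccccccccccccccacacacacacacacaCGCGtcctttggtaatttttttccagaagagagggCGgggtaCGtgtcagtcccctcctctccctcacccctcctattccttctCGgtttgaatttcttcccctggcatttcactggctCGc
Epha7: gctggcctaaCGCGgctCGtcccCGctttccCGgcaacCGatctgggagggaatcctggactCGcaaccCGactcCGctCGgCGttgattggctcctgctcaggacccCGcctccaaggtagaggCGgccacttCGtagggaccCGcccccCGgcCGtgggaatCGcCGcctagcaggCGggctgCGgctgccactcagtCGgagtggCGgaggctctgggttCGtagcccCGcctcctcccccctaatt
Lrrc4c: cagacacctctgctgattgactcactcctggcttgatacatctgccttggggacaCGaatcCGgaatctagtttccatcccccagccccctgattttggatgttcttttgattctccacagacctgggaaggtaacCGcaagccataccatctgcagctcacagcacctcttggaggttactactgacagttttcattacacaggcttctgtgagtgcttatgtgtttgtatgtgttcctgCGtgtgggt
Gm15501: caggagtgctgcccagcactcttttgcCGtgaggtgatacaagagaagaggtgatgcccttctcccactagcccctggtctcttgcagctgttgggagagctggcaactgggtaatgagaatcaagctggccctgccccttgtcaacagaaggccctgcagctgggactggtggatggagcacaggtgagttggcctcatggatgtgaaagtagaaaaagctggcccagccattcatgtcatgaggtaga

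These 4 stretches span the range of promoter types. Epha7 has 25 CG dinucleotides in 250 bases and Cntnap2 has 13, while Lrrc4c has 4 and Gm15501 has 1. Over the 300-base windows of the promoter table (250 bases before a start to 50 after), the median window of a coding gene held 13 CG dinucleotides, and the median of the 180 coding windows that touch a desert was 14.5. The 9 coding windows (8 genes) under a WT desert peak had a median of 27, and the 9 (9 genes) under a KO desert peak one of 11. The 14 under a desert peak of either library had a median of 24. Which windows count for a library depended on the midpoint rule. At Epha7, Cntnap2 and Tmem47 both libraries had a peak, but only the WT peak was a desert peak. No difference in promoter type between the libraries can be read from these medians. The 16 lncRNA windows under a desert peak held a median of 1.5, near the median of 2 of the 979 lncRNA windows that touch a desert.

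In all, 268 gaps reached 1 Mb, with a median length of 1.48 Mb and a range of 1.01 to 4.54 Mb. Outside lncRNA genes they made up 441.6 Mb, 17.2% of the span between the first and last coding gene of each chromosome. Peaks were denser in deserts than in all shorter gaps pooled or in all coding gene bodies pooled. The density was 18.9 per Mb in WT (18.5 to 19.3) and 19.2 per Mb in KO (18.8 to 19.6), against 12.8 and 13 in shorter gaps and 8.92 and 9.08 in protein-coding gene bodies. The desert density was 1.48 times (1.44 to 1.52) that of shorter gaps in WT and 1.47 times (1.43 to 1.52) in KO. lncRNA genes inside the deserts had a density of 18.8 per Mb in WT and 19.4 per Mb in KO, a difference from the surrounding desert within the counting interval. Pseudogenes in deserts held 130 peaks in each library, or 30.3 per Mb of their length (25.3 to 35.9), the same value in both lists.

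Density rose with gap length up to 1 Mb and was then level, until it dropped in the longest deserts. In WT it was 5.98 peaks per Mb in gaps under 50 kb, 9.32 at 50 to 200 kb, 15.8 at 200 to 500 kb and 19.5 at 0.5 to 1 Mb. The KO values were 6.27, 9.21, 16.1 and 19.9. Just past the 1 Mb limit, gaps of 1 to 1.5 Mb had densities of 20.8 (WT) and 20.5 (KO), so the limit itself marked no step. Gaps of 2 to 3 Mb had 21.0 and 21.4. The 28 deserts of 3 Mb or more had 13 WT and 13.7 KO peaks per Mb, 0.637 times (0.599 to 0.676) and 0.664 times (0.626 to 0.705) the density of the shorter deserts. The median desert had 12.9 WT and 13.8 KO peaks per Mb at 2 to 3 Mb and 9.46 and 10.5 at 3 Mb or more. Without the densest 27 deserts, left out after seeing the data, the ratio was 0.676 in WT (0.629 to 0.725). In KO it was then 0.718 (0.670 to 0.769).

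**Figure D1:**
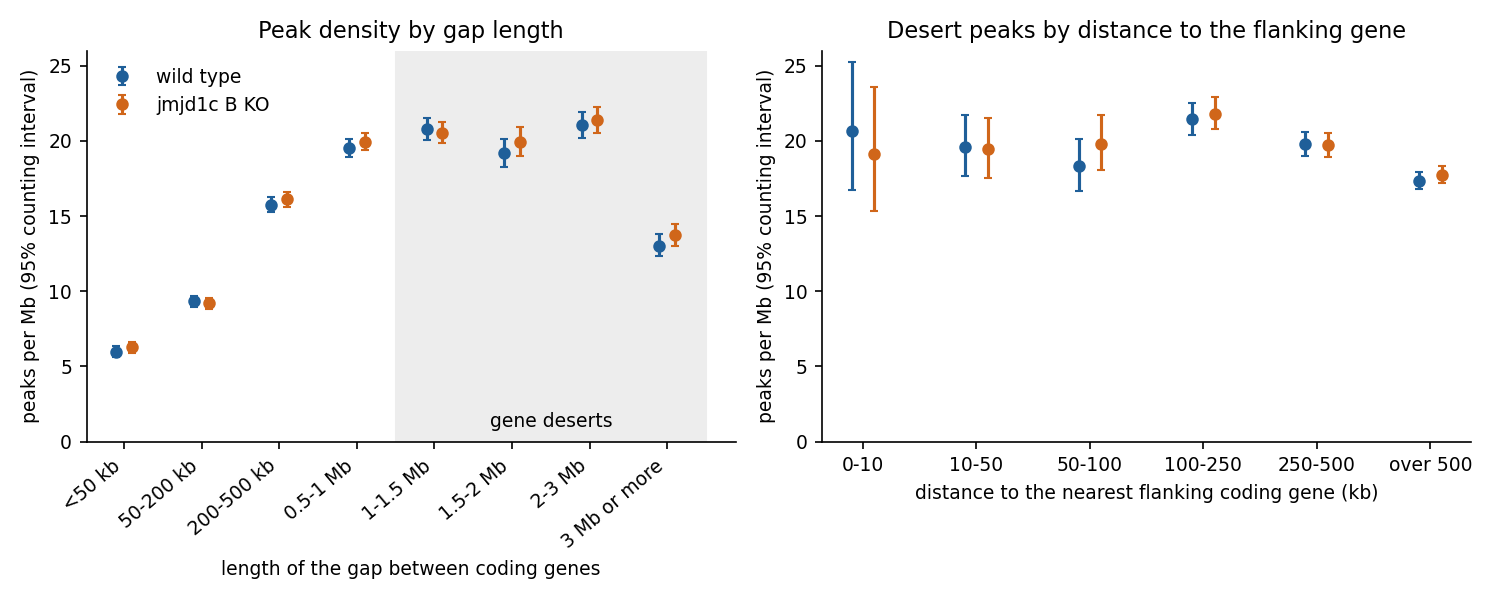
Peaks per Mb (y axes, points with 95% counting intervals) by length of the gap between coding genes (left) and, for desert peaks, by distance to the nearest flanking coding gene (right), in WT (blue) and KO (orange). Density climbs from about 6 per Mb in the shortest gaps to about 20 per Mb at 0.5 Mb. It falls to 13 (WT) and 13.7 (KO) per Mb in gaps of 3 Mb or more. By distance from the gene it is highest at 100 to 250 kb and lowest beyond 500 kb.

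Inside deserts, density varied modestly with distance from the flanking genes, highest at 100 to 250 kb and lowest beyond 500 kb in both libraries. The median desert peak lay 426 kb from the nearest coding gene in WT and 428 kb in KO. In WT there were 20.7 peaks per Mb within 10 kb of a gene (16.7 to 25.3), 21.4 at 100 to 250 kb (20.4 to 22.5) and 17.4 beyond 500 kb (16.8 to 17.9). The KO values were 19.2 (15.4 to 23.6), 21.8 (20.8 to 22.9) and 17.8 (17.2 to 18.3). Of the desert peaks 10.8% in WT and 10.9% in KO lay within 100 kb of a gene, where 10.7% of the desert length lies. The farthest were 2206 kb (WT) and 2233 kb (KO) from any coding gene, in the desert between Celf4 and Pik3c3 on chromosome 18. The nearest WT peak had its midpoint 0.009 kb beyond the end of Agbl1, a carboxypeptidase gene, and the nearest KO peak 0.07 kb beyond Grm3, a glutamate receptor gene.

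The 5′ and 3′ ends of genes differed. Strand was known for 224 gene 5′ ends and 192 gene 3′ ends that face a desert. A peak midpoint lay within 1 kb of 35 of the 5′ ends in WT (15.6%, 11.1 to 21.1) and of 38 in KO (17.0%, 12.3 to 22.5). Of the 17050 other 5′ ends of coding genes 384 in WT (2.25%) and 411 in KO (2.41%) had one. These others include 5′ ends of desert-flanking genes that face away from the desert. The share at desert-facing 5′ ends was 6.94 times that of the others in WT (4.94 to 9.35) and 7.04 times in KO (5.10 to 9.35), with intervals from the desert-facing ends alone. Among peaks of q 1e-05 or lower the share at desert-facing 5′ ends was 1.79% in each library (0.489 to 4.51). This was 4.41 times that of other 5′ ends in WT (1.21 to 11.1) and 9.82 times in KO (2.69 to 24.8). Those ratios rest on very few ends, and their intervals overlap. Of the desert-facing 3′ ends 6 of 192 (3.13%) had a peak within 1 kb in each library, against 1.24% and 1.35% of other 3′ ends.

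The share rose with the length of the gap that a 5′ end faces. In WT it was 1.5% of 11432 ends at gaps under 50 kb, 3.27% at 50 to 200 kb, 9.09% at 200 to 500 kb, 13.3% at 0.5 to 1 Mb and 15.6% at deserts. In KO the same classes had 1.49%, 3.76%, 10.4%, 13.3% and 17.0%. At 3′ ends the share stayed between 1.25% and 3.13% in WT and between 1.38% and 3.13% in KO over these classes. Where the 5′ end of a desert-flanking gene faced away from the desert, 15 of 159 ends had a peak within 1 kb in each library (9.43%, 5.38 to 15.1), an interval that overlaps the one for desert-facing ends.

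The peaks lay on both sides of the gene start. At desert-facing 5′ ends, 24 peaks fell in the first 1 kb of the gene in WT (109 per Mb) and 22 in KO (99.7 per Mb). In the first 1 kb of desert there were 12 in WT (53.6 per Mb) and 16 in KO (71.4 per Mb). Around other 5′ ends those values were 18 and 18.5 per Mb inside and 4.87 and 6.04 outside. The bodies of the 497 flanking genes were also richer in peaks, with 18.9 per Mb in WT and 18.6 in KO against 7.86 and 8.08 in all other coding genes. These genes are long, with a median of 58.8 kb against 17.1 kb, and the part of length in the result was not tested.

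**Figure D2:**
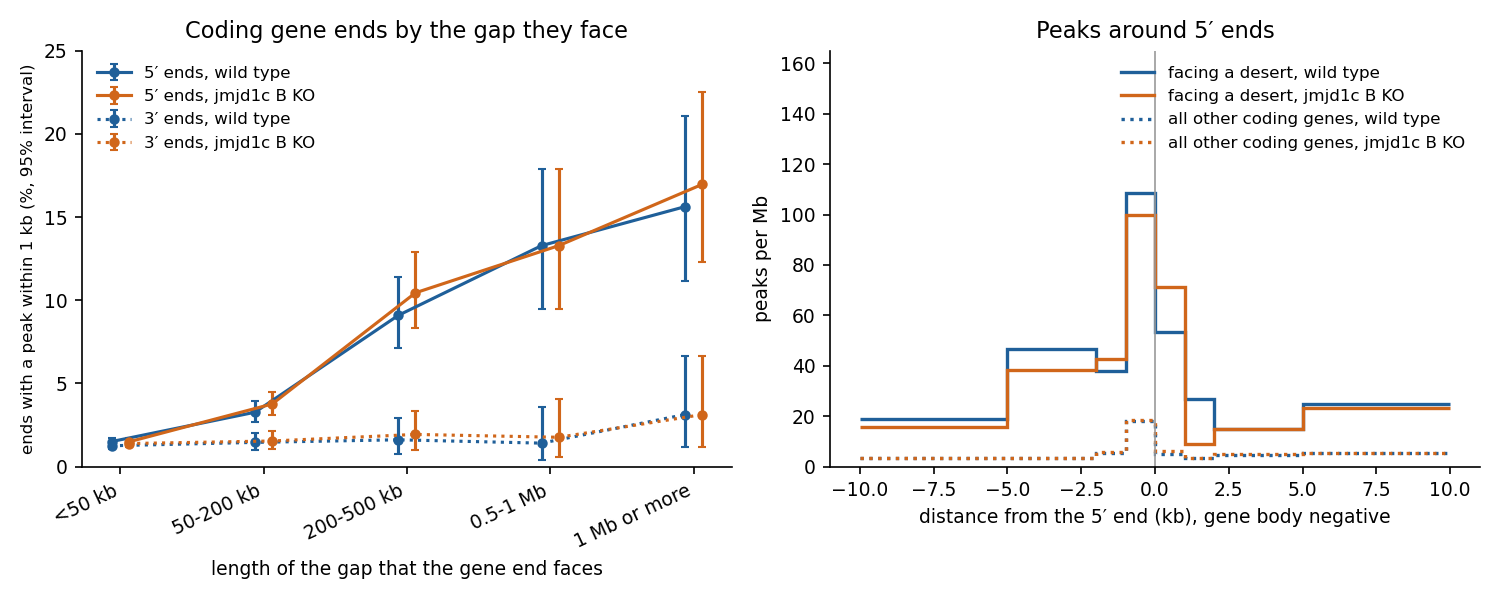
Left, share of coding gene ends with a peak midpoint within 1 kb (y axis, % with 95% interval) by length of the gap that the end faces (x axis), for 5′ ends (solid) and 3′ ends (dotted) in WT (blue) and KO (orange): 5′ ends rise to 15.6% and 17.0% at deserts and 3′ ends to 3.13%. Right, peaks per Mb by distance from the 5′ end in kb (gene body negative), where desert-facing ends reach 109 (WT) and 99.7 (KO) per Mb in the first 1 kb of the gene.

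Of these 5′ ends 26 had a peak in both libraries. They were picked out after their values were seen. The genes were Lrrc4c, Cntnap2, Ncam2, Cadm2, Negr1, Mdga2, Lingo2 and Fat3, which encode adhesion proteins, Epha7, the semaphorin gene Sema6d, the neuregulin gene Nrg3, the receptor genes Grm3, Agtr1b and Adgra3, the choline transporter gene Slc5a7, the sorting receptor gene Sorcs1, the splicing factor gene Nova1 and the imprinted gene Ndn. The others were Gm15501, 4931408C20Rik, Pom121l12, Tmem47, Luzp2, Ptchd1, Arrdc4 and Lratd1. Whether any class of gene is more frequent here than among the 224 desert-facing 5′ ends was not tested. The desert in front of them ran from 1.79 to 62.5 peaks per Mb in WT, with a median of 12.5, and from 2.68 to 61.7 in KO, with a median of 11.2, against a median of 13.7 over all deserts in each library. The start of Slc5a7 had a peak in both libraries beside a desert of 1.79 WT and 2.68 KO peaks per Mb. The widest were those at 4931408C20Rik, a predicted gene, 2054 bp above d in WT and 2146 bp in KO.

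The deserts beside 3 genes of the B lineage were empty on the side of that gene, a pattern noticed after their values were seen. The genes were Bcl11a, a zinc finger factor of early lymphoid cells, Mef2c, a factor of B cell activation and survival, and Myc, the driver of growth on B cell activation, with a desert on both sides. The deserts themselves held peaks. There were 16 WT and 12 KO peaks between Bcl11a and Fancl (chr11:24173559-26387083), 19 and 12 between Cetn3 and Mef2c (chr13:81797156-83504016), 7 and 13 between A1bg and Myc (chr15:60921271-61985340), and 9 and 5 between Myc and Gsdmc (chr15:61990362-63775970).

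All of them lay nearer to the other flanking gene. On the side of the B lineage gene there was no peak up to the middle of the desert in either library, 0 of 51 WT and 0 of 42 KO peaks, and none in lncRNA genes there either. From Bcl11a the nearest desert peak was 1229 kb away in WT and 1223 kb in KO. From Mef2c it was 1125 kb and 1103 kb away, and from Myc 852 kb and 735 kb on the A1bg side and 1089 kb and 1105 kb on the Gsdmc side. Peaks in lncRNA genes do not count in these distances and can lie nearer. In the desert between A1bg and Myc the longest stretch without any peak was 677 kb. Over all 536 gene ends that bound a desert the median distance to the nearest desert peak was 65.2 kb in WT and 74.4 kb in KO. The nearest desert peak of either library was 500 kb or more away at 35 of the 536 ends (6.53%), the 4 B lineage ends among them. The side nearer to the gene held no desert peak of either library at 16 of the 532 ends whose desert held one (3.01%).

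By this distance the B lineage ends ranked 5, 6, 8 and 19 of 536. The longest distances were at Vmn2r121, a pheromone receptor gene, and at Adam6a beside the immunoglobulin heavy chain segments. There the nearest desert peaks were 2165 and 1559 kb away. Other ends of this kind, named after their values were seen, were those of Klf4 and Dad1. Klf4, a zinc finger factor, had its nearest desert peak at 794 kb in WT and 856 kb in KO. The longest stretch without any peak in its desert was 765 kb. Dad1, which lies beside the T cell receptor alpha segments, had its nearest desert peak at 797 and 804 kb. Cited2, a transcriptional coactivator gene, had its nearest desert peak at 998 kb in WT and 875 kb in KO although its desert held 177 WT and 197 KO peaks.

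**Figure D3:**
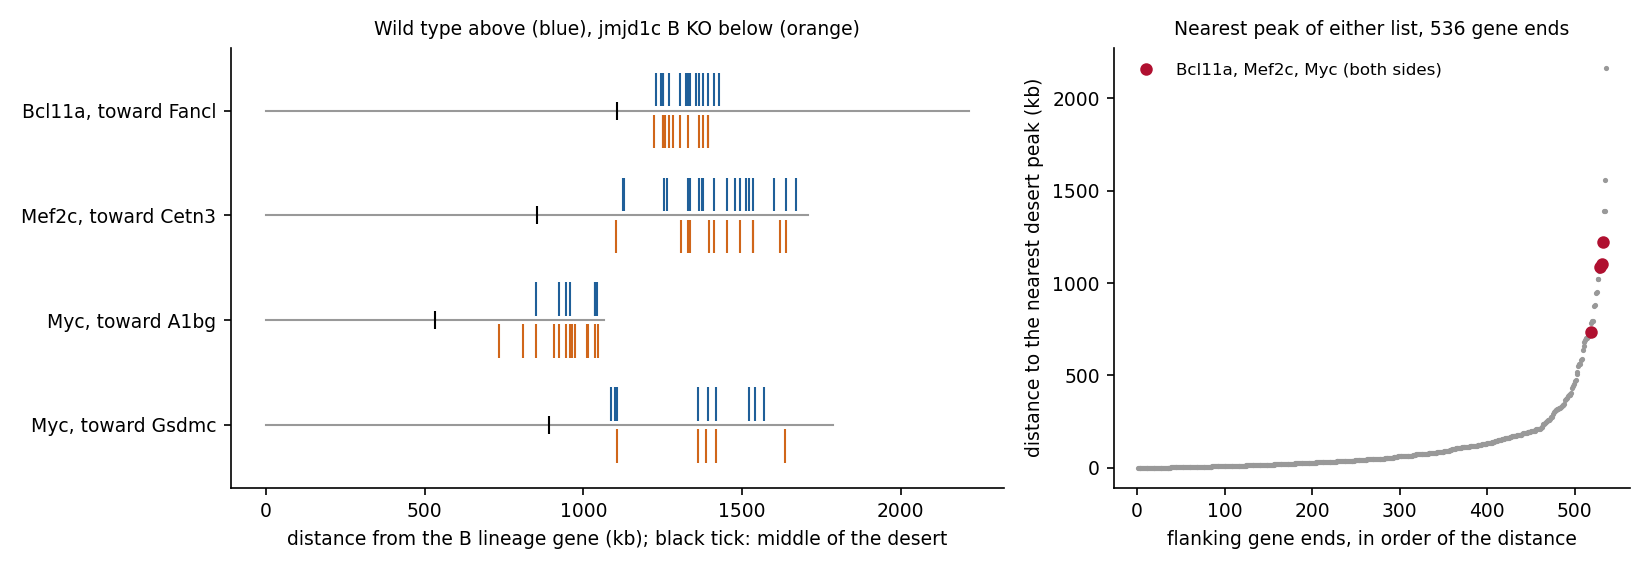
Left, peaks in the 4 deserts that begin at a B lineage gene, by distance from that gene in kb (x axis), WT above each line and KO below it, with a black tick at the middle of the desert: no peak lies between the gene and the tick. Right, distance from each of 536 desert-bounding gene ends to the nearest desert peak of either library (y axis, kb), in order of that distance, with the 4 B lineage ends (red) at 735 to 1223 kb.

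Deserts that hold antigen receptor segments differed. The desert between Adam6a and Zfp386, with 184 segments of the immunoglobulin heavy chain locus, had 2 WT peaks and 1 KO peak in 2.50 Mb. The T cell receptor alpha and delta locus, between Gm36448 and Dad1 with 201 segments, had 20 peaks in each library in 1.69 Mb, or 13.1 per Mb, close to the median desert.

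Single deserts ranged from bare to crowded, and this spread was much larger than any difference between the genotypes. The median desert had 13.7 peaks per Mb in each library, with quartiles of 7.37 and 26.1 in WT and 7.58 and 26.5 in KO. The densest 27 deserts held 32.1% of the WT desert peaks in 9.53% of the length, and 31.6% of the KO peaks in 9.82% of it. In each library 43 deserts had fewer than 5 peaks per Mb, and 21 in WT and 20 in KO had more than 50.

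The densest lay between Rgs18, a regulator of G protein signalling, and Brinp3, a neural growth inhibitor gene, at chr1:144775428-146495628. Its 166 WT and 167 KO peaks made 101 per Mb in each library, of which 117 in each library were overlapped in the other. From the first peak, 64.8 kb (WT) and 70.7 kb (KO) from Rgs18, to the last, 71.9 and 72.1 kb from Brinp3, there was no space between neighbouring midpoints over 30.8 kb in WT or 48.7 kb in KO. Within 1 Mb outside it there were 23 WT and 21.5 KO peaks per Mb. On the same chromosome the desert between Kcnt2, a potassium channel gene, and Cdc73 had the most peaks, 205 in each library (70.5 per Mb), beside 10 and 11.5 per Mb outside. Other dense deserts were those between Impg1 and Htr1b (88 WT and 93 KO peaks), Pdcd1 and Fam174a (112 and 104), St8sia4 and Slco4c1 (78 and 91), and Pot1a and Grm8 (112 and 111).

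The 5 longest deserts ran from bare to near the median density. Between the protocadherin genes Pcdh20 and Pcdh9 there were 19 peaks in each library in 4.54 Mb (4.48 per Mb), and between Cntnap5b and Cdh20 11 WT and 14 KO peaks in 4.28 Mb (2.61 and 3.32 per Mb). Olfm4 to Pcdh17 had 10.7 WT and 12.8 KO peaks per Mb, Celf4 to Pik3c3 11 and 11.9, and Tenm3 to Aga 14.2 and 15.8. Over all 268 deserts Spearman's rho of length with density was -0.10 in WT and -0.08 in KO. No peak of either library lay between Gm4868 and Tmem132c (1.39 Mb) or between Gm10096 and Gm10488 on the X chromosome (1.02 Mb), and 264 deserts had a peak in both libraries.

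A single gene could separate a bare desert from a crowded one. On the far side of Pcdh9, the next desert, to Spertl, held 135 WT and 110 KO peaks in 1.99 Mb, 15.3 times (9.43 to 26.2) the density of the Pcdh20 side in WT and 12.5 times (7.62 to 21.5) in KO. This was the largest step among 39 such pairs of deserts that share a flanking gene. The median pair differed 1.86-fold, 11 pairs over 3-fold, and Spearman's rho between the members of a pair was 0.56 in WT and 0.46 in KO. The edge could also lie inside a desert. From Nmbr to Cited2, peaks filled the first part, and the last WT peak was 1954 kb and the last KO peak 2077 kb from Nmbr in a desert of 2952 kb.

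**Figure D4:**
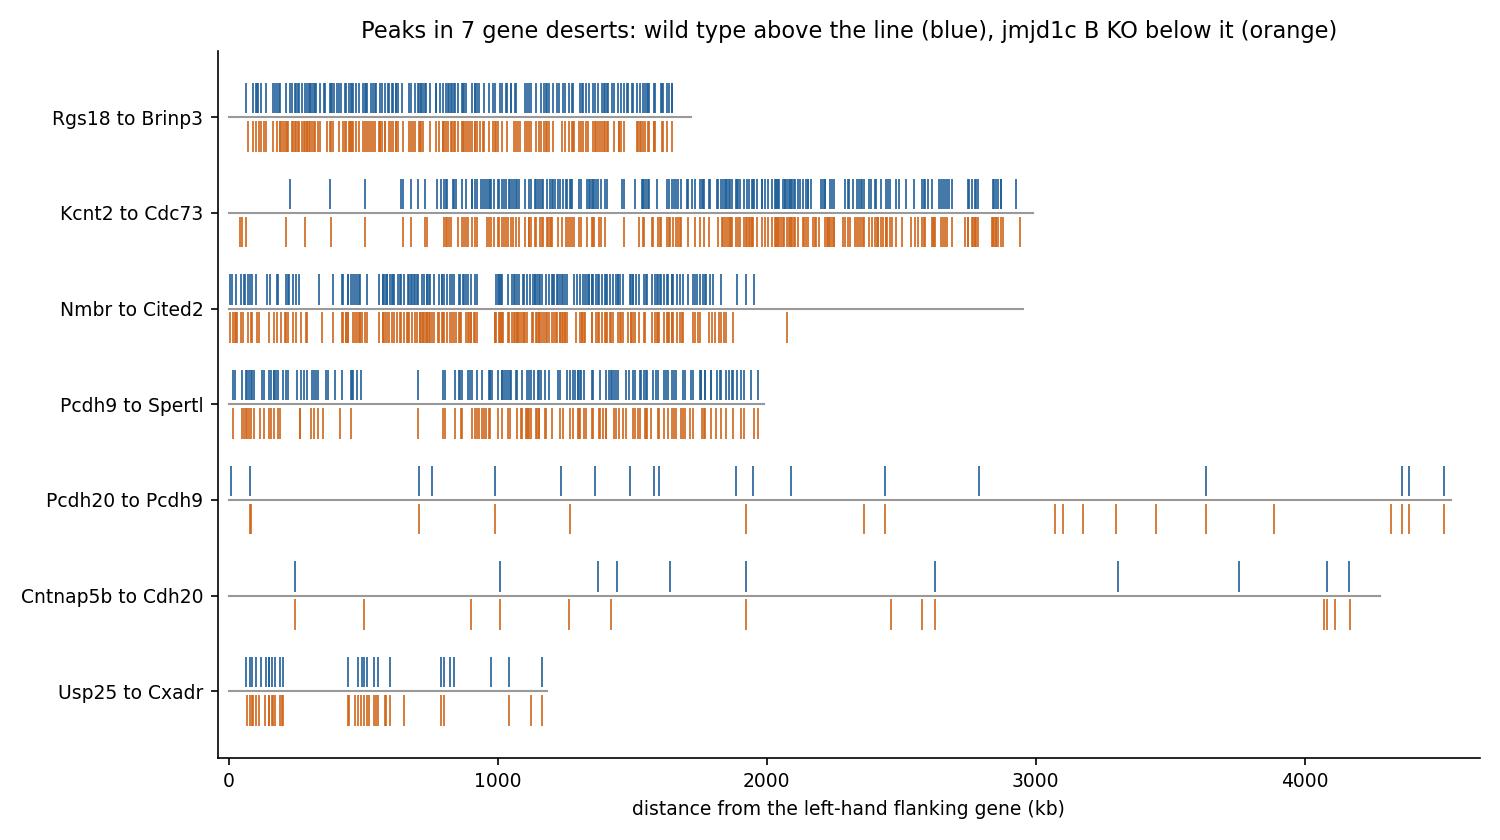
Positions of peak midpoints in 7 deserts (rows), by distance from the left-hand flanking gene in kb, WT in blue above each line and KO in orange below it. Rgs18 to Brinp3 is filled except for 64.8 to 72.1 kb at its ends, Nmbr to Cited2 is empty past 1954 kb (WT) and 2077 kb (KO), and of the 2 deserts that share Pcdh9, that toward Pcdh20 holds 19 peaks in each library and that toward Spertl 135 WT and 110 KO peaks.

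The level of a desert moved with that of its surroundings. In the 89 least dense deserts, of 5.53 peaks per Mb at the median, the 1 Mb outside each end had a median of 6.5 WT and 7.5 KO peaks per Mb. Around the 90 densest, of 33.9 per Mb, it had 17.5 and 18. Spearman's rho between the density inside and outside was 0.45 in WT and 0.41 in KO over the 268 deserts, which share 2 libraries, and that with the number of coding genes within 1 Mb was 0.06 and 0.05. By chromosome, the density ran from 11.3 WT and 11.1 KO peaks per Mb of desert on chromosome 7 to 30.3 and 30.0 on chromosome 9.

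The families of the flanking genes differed in level, with wide ranges. The 21 deserts at a cadherin gene had a median of 9.20 WT and 10.4 KO peaks per Mb, the 11 at leucine-rich repeat adhesion genes (Lrrtm, Slitrk, Flrt and relatives) 7.18 and 6.65, and the 10 at contactin and neurexin relatives 7.5 and 8.13. The 15 at developmental transcription factors had 10.5 and 11.5. Above the median of 13.7 were the 13 at ion channel and transmitter receptor genes, with 17.2 and 18.4, and the 10 at growth factor and guidance genes, with 24.8 and 22.7. The 6 at zinc finger genes had 14.9 in WT and 12.7 in KO, above the median in one library and below it in the other. Cadherin deserts were also long, 3.14 Mb at the median against 1.48 Mb over all. The median was 2.50 Mb at leucine-rich repeat adhesion genes, 2.66 Mb at contactin and neurexin relatives and 2.12 Mb at growth factor and guidance genes. At the other families named here it ran from 1.24 to 1.56 Mb. The part of length in these levels was not tested. Single values cross these medians, as at Pcdh9 and at Grm8, whose desert had 81.2 WT and 80.5 KO peaks per Mb.

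Within deserts the peaks were clustered. The nearest other peak of the same list was 10.3 kb away at the median in WT and 10.04 kb in KO, against 11.2 and 11.1 kb for peaks outside deserts. A neighbour within 10 kb was found for 48.5% of desert peaks in WT (47.4 to 49.6) and 49.9% in KO (48.8 to 51.0), against 45.1% and 45.8% elsewhere. Peaks in coding gene bodies had one almost as often, for 44.3% in WT and 46.1% in KO. Their density was lower, 8.92 and 9.08 per Mb against 18.9 and 19.2 in deserts. The part of density in these shares was not tested, so they do not show closer clustering in deserts. In 3585 windows of 100 kb the variance of the peak count was 3.67 times its mean in WT and 3.66 times in KO, and 28.4% of the windows were empty in both libraries. Within single deserts the median ratio of variance to mean was 1.38 in WT (quartiles 0.964 and 2.21) and 1.47 in KO (1 and 2.17). A value of 1 is that of independent placement. The part of differences between deserts in the pooled ratio was not tested.

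Chains of peaks with no step over 10 kb reached 5 or more members 130 times in WT and 151 times in KO, and held 9.94% and 11.8% of the desert peaks. The longest had 19 peaks over 100.4 kb in WT, between St8sia4, a sialyltransferase gene, and Slco4c1, and 18 peaks over 103.2 kb in KO, between Rgs18 and Brinp3. Bare stretches were just as much a feature. The longest stretch without a peak of either library had a median of 282 kb over the deserts and was 500 kb or more in 62 of them.

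Single desert peaks were narrow and of ordinary strength. Their median width was 196 bp above d in WT (190 to 203) and 188 bp in KO (183 to 196), against 194 and 186 bp outside deserts. A width of exactly d, the smallest possible, was found for 12.1% of the WT and 13% of the KO desert peaks, and 245 and 215 were 1 kb or more above it. Median fold enrichment, as the authors' caller gave it, was 2.79 in WT and 3.15 in KO, against 2.69 and 3.05 outside deserts. The most significant 10% of each list held 10.2% of the WT and 9.93% of the KO desert peaks.

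A few sites stood far above this level in both libraries. The highest fold enrichment was in the desert between Gm40892 and Flrt2, at chr12:93576851-93577359 in WT, with 18.1-fold and a pileup of 4079 extended tags, and 27.5-fold and 3763 in KO. The next were between Pcdh17 and Diaph3 (15.9-fold in WT, 24.1-fold in KO), near the middle of the bare desert between Pcdh20 and Pcdh9 (14.5 and 22.4), and between Itga1 and Isl1 (14.3 and 22.2). In all 14 WT and 13 KO desert peaks had a pileup of 100 or more, and each of them was overlapped in the other list. The widest WT peak, 2257 bp above d and 2289 bp in KO, lay between Grm3 and Gm5861 on chromosome 5, and the widest KO peak, 2299 bp and 2202 bp in WT, between Snx16 and Ralyl on chromosome 3.

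About the same share of desert peaks recurred in the other genotype in both directions. A peak of the other list overlapped 4039 WT desert peaks (48.4%, 47.4 to 49.5) and 4052 KO desert peaks (47.9%, 46.8 to 48.9). The background over all peaks was 46.4% in WT and 45.9% in KO, and the share outside deserts 45.7% and 45.2%. With the desert peaks weighted to the significance of the others, the shares were 47.7% and 47.1%. The overlap followed the authors' q-value, from 28.2% of desert peaks in the least significant 10% of each list to 81.8% (WT) and 75.3% (KO) in the most significant. Overlapped desert peaks were wider, at a median of 283 bp above d in WT and 289 bp in KO against 130 and 132 bp for the others. The share also rose with the density of the desert, from 31.5% in the least dense to 54.5% in the densest in WT and from 31.9% to 54.1% in KO. More peaks leave more room for a hit, and the part of density in this rise was not tested.

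Peaks with no partner lay about as far from the other list as desert peaks lie from each other. The nearest KO peak lay a median of 10.4 kb from the 4300 WT desert peaks without overlap, and the nearest WT peak 10.7 kb from the 4414 KO ones. Within 1 kb there was one for 6.37% and 6.80%, within 5 kb for 26.5% and 27.4%, and for 13.1% and 14.5% it was over 50 kb away.

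The 2 genotypes had nearly the same number of desert peaks in all, and their numbers rose and fell together across deserts. The KO to WT ratio was 1.02 (0.985 to 1.05) in deserts and 1.02 (0.999 to 1.04) elsewhere. Across the 268 deserts the densities had a Pearson r of 0.97 and a Spearman rho of 0.95, and across 100 kb windows 0.86 and 0.74, as a description of 2 libraries. KO had more peaks in 131 deserts, fewer in 113 and the same number in 24. At a q of 1e-05 or lower the balance shifted, with 1106 WT and 660 KO desert peaks, a ratio of 0.597 (0.541 to 0.658). Elsewhere the ratio was 0.647 (0.610 to 0.685). The caller's d of 292 bp (WT) and 189 bp (KO) enters its significance, and the part of d in this was not tested.

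Among the 223 deserts with at least 10 peaks, KO had over 1.5 times the WT number in 14 (6.28%) and WT over 1.5 times the KO number in 12 (5.38%). The background over 1250 bins of 1 Mb was 7.2% and 6.24%, so such deserts were no more frequent than such bins. The bins held fewer peaks, a median of 18 in WT against 25 in those deserts. Smaller counts pass a fold limit more easily, and the part of this was not tested. The largest gains in number were between Nmbr and Cited2 (177 WT, 197 KO), Snx16 and Ralyl (50, 69) and Alcam and Zpld1 (54, 73). The largest losses were between Pcdh9 and Spertl (135, 110), Prr16 and Ftmt (76, 58) and Cypt14 and Gria3 (73, 56). The interval of the ratio included 1 in each of these 6, as for Alcam to Zpld1, 1.35 (0.938 to 1.96). Among smaller counts were 6 WT and 15 KO peaks between Pcdh10 and Pabpc4l and 29 and 15 between Fgf9 and 1700129C05Rik. The interval of the ratio excluded 1 only for the Fgf9 desert, among all deserts where a ratio could be formed, at 0.517 (0.258 to 0.997).

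**Figure D5:**
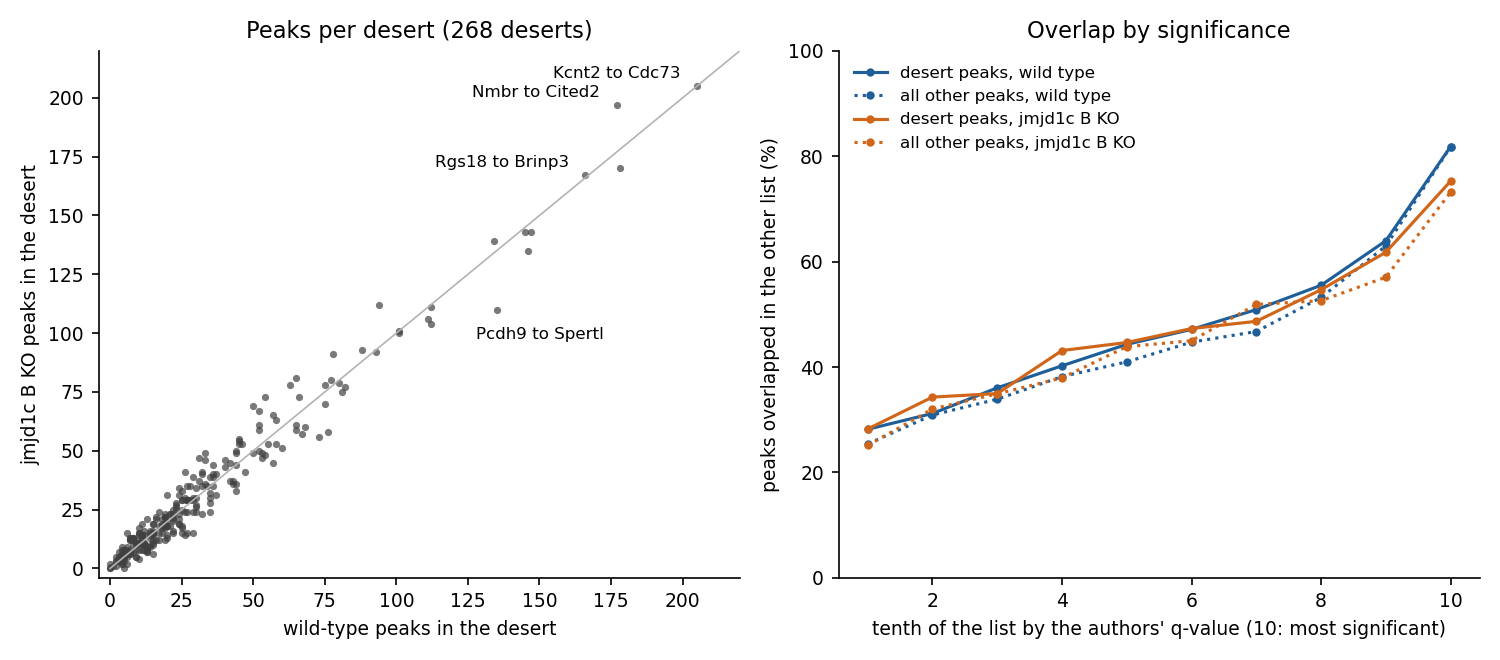
Left, KO against WT peaks in each of 268 deserts (points, with the line of equal numbers), from 0 to 205 peaks per desert. Right, share of peaks overlapped in the other list (y axis, %) by the peak's 10% class of the authors' q-value in its own list (10 the most significant), for desert peaks (solid) and all other peaks (dotted), rising from 28.2% to 81.8% (WT, blue) and 75.3% (KO, orange) for desert peaks.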

How the data were processed

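The series holds peak lists of 2 H3K9me2 CUT&Tag libraries, 1 for each genotype given in the labels. The mm10 build is listed in the submitters' processing notes, with deepTools, HOMER, MACS2, Picard, Bowtie2 2.4.2, SAMtools 1.11 and Trim Galore 0.6.6, whose roles are not given there. Per the file headers, the authors called broad peaks in each library with MACS2 2.2.7.1 at q and broad cutoffs of 0.01, with all duplicates kept, no control library and a local background window of 10000 bp. Domains much wider than that window lift their own background and may escape calling. Duplicates that were kept can pile up into narrow towers, and without a control, sites that collect reads in every library remain. The deposited pileup is a coverage signal of tags extended to d, the deposited p-values and q-values are −log10 values, and fold enrichment is the authors' ratio to local background. All depend on d, 292 bp in WT and 189 bp in KO. They were used within a list, or to filter both lists at 1 limit. The deposited coordinates and widths were used as given, counted from 1, less d where a width is printed.

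Genes came from RefSeq of GRCm38.p6, with 49209 genes on the chromosomes used, 21521 of them protein-coding and 12607 lncRNA, after removal of 345 scaffold genes that the table lists behind each chromosome's own genes. Overlapping coding bodies were joined. Densities use desert length less lncRNA genes. Runs of unknown bases were not subtracted. Strand came from the RefSeq promoter table and was matched for 17274 coding genes (80.3%). Overlap needed at least 1 bp. The planned display of peak sequences was not made, for lack of a genome. Single deserts were named as the 10 densest, the 5 longest, the 3 with the largest difference in peak number in each direction, the 5 longest without a peak or with fewest peaks, and those flanked by a B lineage gene. Single peaks were named as the 5 of highest fold, the 3 widest, and the 3 closest to and farthest from a gene. The members, gene lists and rules were chosen with earlier results of these data known. The values of 1 desert are not reported here. The comparison of gene ends, of neighbouring deserts and of sides of a desert was added after seeing the data.

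Counts carry exact Poisson, shares Clopper-Pearson and ratios binomial-based 95% intervals. With 1 library per genotype there was no test. Alternatives were a minimum gap of 2 Mb or 500 kb, a q of 1e-05 or lower, peaks merged within 5 kb, predicted coding genes not bounding gaps, lncRNA genes kept, autosomes only, peaks of pileup 100 or more left out, other overlap and neighbour limits, KO peaks widened to the larger d, equal numbers of peaks, and widths as deposited. The functions were tested on simulated peaks and genes. Python 3.11.15, numpy 2.4.6, pandas 2.3.3, scipy 1.17.1 and matplotlib 3.10.9 were used.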

Additional observations from a re-analysis of the deposited data

Results flagged for a closer look

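Outside the chromosomes analysed, the lists held 188 WT and 199 KO peaks. Of these 183 in WT and 194 in KO lay on scaffolds, 4 in each library on the mitochondrial genome and 1 in each on chromosome Y.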

How the results depend on the processing

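With 1 library per genotype no library could be left out, and no paired analysis was possible because the labels carry no replicate numbers. Of 177 values under alternatives, 126 stayed within the interval of the reported value (counts within 1.5 times). No value whose interval excluded 1 crossed to the other side of it. At a q of 1e-05 or lower, 2 whose interval included 1 did, the KO to WT ratio, from 1.02 to 0.597, and the KO density within 50 kb of a gene against that beyond 500 kb, from 1.09 to 0.779. The cause of the other 51 was not tested. In pairs below the first value is WT and the second KO.

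A minimum gap of 2 Mb gave 3531 and 3633 peaks, 17.3 and 17.8 per Mb, 1.21 and 1.23 times the density of shorter gaps, and 1.33 and 1.47 times the density within 50 kb of a gene as beyond 500 kb. A minimum of 500 kb gave 12716 and 12935 peaks, 1.80 and 1.81 times the density of shorter gaps, and a neighbour within 10 kb for 48.2% in KO.

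A q of 1e-05 or lower gave 1106 and 660 peaks, 2.50 and 1.49 per Mb, and 1.39 times the density of shorter gaps in KO. In WT the deserts of 3 Mb or more then had 0.686 times the density of the others. The density within 50 kb of a gene was 1.29 and 0.779 times that beyond 500 kb, with intervals that include 1. With both lists cut to this q, a neighbour was found for 16.4% and 10.6% and an overlap for 24.4% and 40.9%. In the full other list, 872 of these 1106 WT and 504 of these 660 KO peaks had an overlap. The median width above d was 256.5 and 208.5 bp. Of the 5′ ends facing a desert 1.79% had a peak within 1 kb in each library (0.489 to 4.51). This was 4.41 times the share of other 5′ ends in WT (1.21 to 11.1) and 9.82 times in KO (2.69 to 24.8).

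Peaks merged within 5 kb gave 16.7 and 16.8 per Mb, a neighbour for 32.1% and 33.4% and an overlap for 50.6% in each. Gaps not bounded by predicted genes had 18.3 and 18.7 per Mb. On autosomes only, deserts of 3 Mb or more had 0.567 and 0.592 times the density of the others. Without the densest 27 deserts, an alternative chosen after seeing the data as were those for 5′ ends, they had 0.676 and 0.718 times. A reciprocal overlap of 50% left 31.2% and 30.7%. A neighbour lay within 5 kb for 16.6% and 19.7% and within 20 kb for 72.4% and 72.5%. Widths as deposited had medians of 488 and 377 bp. Depth limits the sparse deserts most, where 1 peak changes a value by a large factor.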
